A study of Mus musculus with 8 samples.

Results

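Cholesterol synthesis and transport genes are described here as 1 group of 33 members, chosen by symbol among the 19787 genes of a single-nucleus RNA sequencing study of the mouse low thoracic spinal cord. All 33 were in the matrix. They were ordered by role: 8 genes of the mevalonate steps, 11 of the squalene and sterol steps, 7 regulators, and 7 genes of transport, storage and removal. The first 19 are called the synthesis genes below. The list did not use measured values, but it was drawn up with earlier results of these data known.

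The study profiled 12447 nuclei in 8 libraries from wild-type C57BL/6 mice, and the labels give no age. Hemisection, a cut through one side of the cord, was compared with uninjured cord, and the labels do not give the time after injury. The 2 hemisection libraries share experiment 2 with 1 uninjured library. Experiment 1 has 2 uninjured replicates, each with a GFP library of neurons traced by their projection to the lumbar cord and a library without GFP, called traced and untraced here. Experiment 3 has 1 library of GFP-traced neurons labelled as regenerating. Nothing says whether a library pooled several animals, so p-values measure only the spread between these libraries, which may be technical. The test partly shares that spread over genes, so a p-value need not reflect a gene's own spread.

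Cells make cholesterol from acetyl-CoA through mevalonate, the isoprenoid units and squalene to lanosterol, which is then trimmed to cholesterol. SREBP2, held in the endoplasmic reticulum with SCAP by the INSIG proteins when sterol is plentiful, switches these genes on when sterol is scarce. Myelin is rich in cholesterol, the blood-brain barrier keeps out lipoprotein cholesterol, and the central nervous system therefore makes its own, with liver X receptors driving export through ABCA1 and ABCG1 when sterol accumulates.

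The start regions of 4 members are printed because they stand for synthesis genes that fell in neurons and oligodendrocytes against both references (Hmgcs1 and Msmo1), the feedback regulator that fell with them (Insig1) and the exporter that rose (Abca1). Each runs from 250 bases before to 50 bases after the start of a RefSeq transcript on GRCm38.p6, 5′ to 3′ on the gene's own strand. Capitals mark matches, on either strand, to TCACNCCAC, a form of the sterol regulatory element, and to CCAAT, the box bound by NF-Y. Both motifs were searched in the 27 members with an entry in the RefSeq table.
Hmgcs1, chr13:119690101-119690400, plus strand: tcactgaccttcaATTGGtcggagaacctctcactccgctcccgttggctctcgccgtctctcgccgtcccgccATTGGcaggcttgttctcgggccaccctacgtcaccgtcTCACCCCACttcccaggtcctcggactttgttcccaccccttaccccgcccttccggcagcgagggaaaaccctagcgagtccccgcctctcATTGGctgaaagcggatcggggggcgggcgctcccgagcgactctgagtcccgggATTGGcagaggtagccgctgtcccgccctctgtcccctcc
Msmo1, chr8:64733529-64733828, minus strand: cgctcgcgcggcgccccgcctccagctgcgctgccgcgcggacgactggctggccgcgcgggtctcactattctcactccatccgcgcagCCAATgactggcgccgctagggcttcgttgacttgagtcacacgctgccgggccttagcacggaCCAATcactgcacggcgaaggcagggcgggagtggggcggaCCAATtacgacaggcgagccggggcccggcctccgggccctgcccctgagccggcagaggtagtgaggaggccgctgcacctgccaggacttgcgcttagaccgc
Insig1, chr5:28071162-28071461, plus strand: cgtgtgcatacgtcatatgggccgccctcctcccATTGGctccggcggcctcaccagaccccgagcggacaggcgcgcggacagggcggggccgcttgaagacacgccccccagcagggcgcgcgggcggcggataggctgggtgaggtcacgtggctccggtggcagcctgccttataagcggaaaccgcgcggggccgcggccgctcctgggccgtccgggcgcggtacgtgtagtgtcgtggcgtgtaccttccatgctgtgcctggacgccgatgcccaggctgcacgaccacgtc
Abca1, chr4:53159846-53160145, minus strand: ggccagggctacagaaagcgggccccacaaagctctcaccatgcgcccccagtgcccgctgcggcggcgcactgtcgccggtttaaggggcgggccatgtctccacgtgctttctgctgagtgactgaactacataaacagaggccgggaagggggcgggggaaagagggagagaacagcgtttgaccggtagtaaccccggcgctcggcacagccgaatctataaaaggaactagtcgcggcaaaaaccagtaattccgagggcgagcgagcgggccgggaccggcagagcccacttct

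TCACNCCAC was found in 1 of the 27 members, Hmgcs1, at 137 bases before the start (position -137), and in 1.44% of all 27025 genes in the table. CCAAT was found in 22 of the 27 members (81.5%), in 15 of the 16 synthesis genes with an entry (93.8%) and in 41.1% of all genes. Msmo1 held 3 CCAAT matches, Hmgcs1 held 4, Insig1 held 1, and Abca1 held neither motif. The 2 motifs overlapped at 0 places. A match is a description of these letters and no evidence of binding.

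Depth and purity differed between the libraries in ways that touch the comparisons. Nuclei carried the class names the authors deposited, and 10 of 10 oligodendrocyte, 7 of 7 microglia and 7 of 8 neuron markers were highest in their own class in the uninjured library of experiment 2. Neuron sums held 135012 UMI counts in the regenerating library and 333459 to 20739862 in the others. Only 4 barcode sequences occurred in more than 1 library and 0 nuclei repeated the values of another. In the uninjured library of experiment 2 all 4489 non-neuronal nuclei lacked a barcode sequence while the 2148 neurons had one, so whether its neurons and glia came from 1 preparation cannot be told. In neurons the summed level of 13 mitochondrially encoded transcripts was 4639 counts scaled to a fixed total (CPM) in that library against 590 to 936 CPM in hemisection and untraced neurons. The summed level of 10 oligodendrocyte markers in neurons was 798 CPM there, 249 and 267 CPM in untraced and 85.0 and 188 CPM in hemisection neurons.

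In uninjured cord the synthesis genes were read most in astrocytes and oligodendrocytes. Their summed level was 1376 and 1281 CPM in astrocytes of the uninjured library of experiment 2 and of untraced replicate 1. Oligodendrocytes held 1323 CPM in the uninjured library of experiment 2 and 900 and 965 CPM in the untraced libraries. Neurons held 656, 487 and 403 CPM in the same order, below oligodendrocytes in each of the 3 libraries. Oligodendrocyte precursors (OPC) held 975, 570 and 571 CPM and lay between those classes in each library, whereas microglia held 625, 267 and 221 CPM and ranked last of the 4 classes. Vascular nuclei, measured in 1 library, held 605 CPM. The order of astrocytes and oligodendrocytes in the library of experiment 2, and of neurons, microglia and vascular nuclei there, rests on differences smaller than the gap between uninjured libraries of the same class.

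Several members separated the classes more sharply than the summed level did. Cyp46a1, the 24-hydroxylase by which neurons dispose of cholesterol, read 16.8 to 37.3 CPM in neurons and 4.47 to 12.6 CPM in oligodendrocytes of the 3 uninjured libraries, which did not overlap. Astrocytes (4.90 to 12.9 CPM) and OPC (0 to 15.4 CPM) also lay below neurons. Microglia (0 to 21.6 CPM) overlapped neurons for Cyp46a1, and vascular nuclei, at 21.8 CPM, lay within the neuron range. Msmo1, the sterol C4-methyl oxidase, read 255 to 278 CPM in astrocytes of 2 libraries, 160 to 196 CPM in oligodendrocytes and 33.9 to 65.7 CPM in neurons of 3. Soat1, which esterifies cholesterol for storage, read 202 to 255 CPM in astrocytes and 93.2 to 175 CPM in microglia, against 7.83 to 28.4 CPM in neurons. Astrocytes and microglia therefore lay above neurons for Soat1 without overlap. Abcg1, an exporter to lipoprotein particles, read 2.45 to 7.48 CPM in astrocytes, whereas oligodendrocytes held 107 to 160 CPM. Abca1, the exporter that loads lipid-poor apolipoproteins, read 184 to 682 CPM in microglia and 6.56 to 10.1 CPM in neurons.

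**Figure D1:**
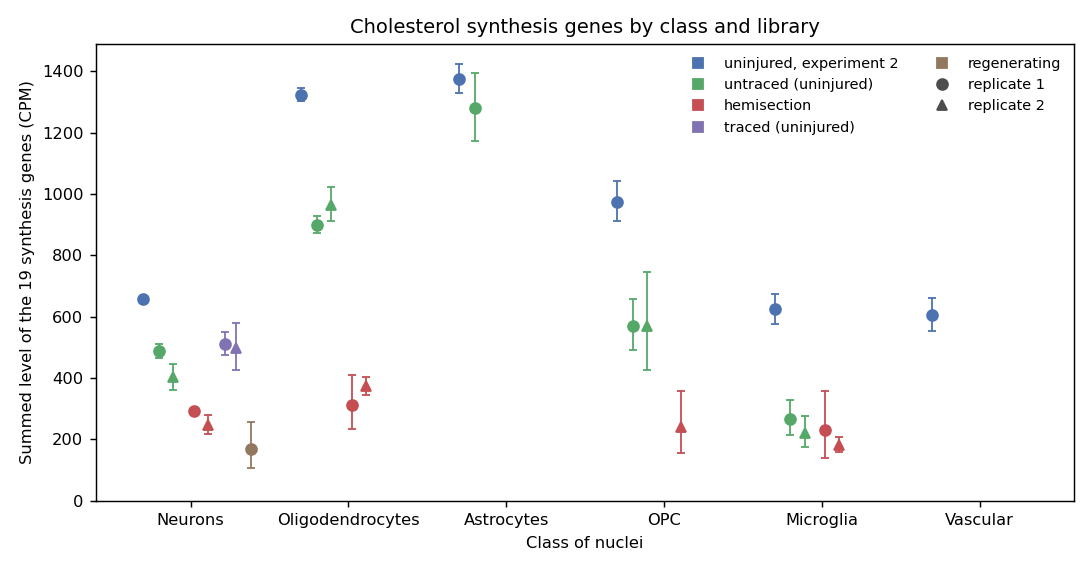
Summed level of the 19 synthesis genes (vertical axis, CPM) by class of nuclei (horizontal axis), 1 point per library with at least 20 nuclei of the class. Colours give the group, symbols the replicate, and bars the 95% Poisson interval of the summed count, which covers counting error only. Hemisection libraries lie below every uninjured library in neurons (249 and 291 CPM against 403 to 656) and oligodendrocytes (313 and 373 CPM against 900 to 1323), while in microglia 1 hemisection value lies between the untraced values.

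Hemisection neurons held less transcript of the synthesis genes than every uninjured neuron library. Their summed level was 291 and 249 CPM in hemisection replicates 1 and 2. The untraced libraries held 487 and 403 CPM, the traced libraries 512 and 498 CPM, and the uninjured library of experiment 2 held 656 CPM. The hemisection values lay below all 5 uninjured values without overlap. Dorsal excitatory neurons, the subtypes named DE, made up 53.3% and 58.3% of hemisection neurons and 54.5% and 57.7% of untraced neurons. They made up 37.5% and 36.0% of traced neurons and 42.4% of the uninjured neurons of experiment 2. The part of this mixture in the summed level was not tested, and subtypes are described below. In bulk sums of nuclei, less RNA per nucleus and fewer nuclei that hold the transcript cannot be told apart from the level alone. For Hmgcs1, 10.5% and 11.1% of hemisection neurons held a UMI against 38.1% in the uninjured library of experiment 2 and 24.6% and 22% in untraced neurons, at median depths of 7149 and 7828 UMIs against 8907, 8522 and 5767.

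Against the uninjured library of experiment 2, 11 of the 31 members tested in neurons were lower and 1 was higher. Of all 11601 genes tested, 4.61% were called lower and 0.948% higher at an adjusted p under 0.05 by edgeR's quasi-likelihood test. Mvk, mevalonate kinase, and Nr1h3, a liver X receptor gene, did not pass the filter on low counts. The median log2 fold change was -0.98 over the 31 members and 0.03 over all genes. The call was made for 3 of 7 mevalonate genes, 5 of 11 squalene and sterol genes, 2 of 6 regulators and 2 of 7 transport genes. In the same comparison all 13 mitochondrially encoded transcripts and all 10 oligodendrocyte markers were called lower, and their part in the result was not tested. If every oligodendrocyte marker UMI in neurons came with the other transcripts of oligodendrocytes of the same library, the synthesis genes would gain 49.6 CPM in the uninjured library of experiment 2, 11.3 and 14.8 CPM in untraced and 1.67 and 4.32 CPM in hemisection neurons. Without that amount the summed levels were 606 CPM, 476 and 388 CPM, and 290 and 244 CPM. This amount counts oligodendrocyte transcripts only, and carry-over of synthesis genes from other classes was not computed. It also takes oligodendrocytes of the same library as the source, although neurons and glia of the uninjured library may come from different preparations.

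Against untraced neurons, which had mitochondrial levels close to those of hemisection, 4 of 31 members were lower and 0 higher, while 0.0517% of all genes were called lower and 0.138% higher. The median log2 fold change was -0.58 over the members and -0.02 over all genes, and 14 of 31 members had an unadjusted p under 0.05. These 4, Hmgcs1, Sqle, Msmo1 and Insig1, were among the 6 genes called lower in that comparison. In that comparison 0 of 13 mitochondrially encoded transcripts and 1 of 10 oligodendrocyte markers were called lower. Both hemisection comparisons share the 2 hemisection libraries, so they are not independent. Hemisection and untraced libraries come from different experiments. In every comparison with untraced, in neurons and in glia, injury, experiment and tracing fraction therefore cannot be told apart.

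Hmgcs1, which makes HMG-CoA for the mevalonate pathway, read 14.4 and 12.4 CPM in hemisection neurons. It read 38.2 and 40.3 CPM in untraced, 34.4 and 36.0 CPM in traced and 59.0 CPM in the uninjured neurons of experiment 2. Apart from the regenerating library, both hemisection libraries were the lowest, and the groups did not overlap. Its log2 fold change was -1.48 ± 0.27 (SE) against untraced (adjusted p = 0.0314, edgeR) and -2.0 ± 0.28 against the uninjured library (adjusted p = 0.000521, edgeR).

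Sqle, squalene epoxidase, read 7.12 and 8.60 CPM in hemisection neurons. It read 31.6 and 16.8 CPM in untraced, 26.9 and 30.0 CPM in traced and 49.4 CPM in the uninjured neurons of experiment 2. Untraced replicate 2 was the nearest to hemisection, and there was no overlap. It fell by 1.79 ± 0.34 on the log2 scale against untraced (adjusted p = 0.0492, edgeR) and by 2.63 ± 0.35 against the uninjured library (adjusted p = 0.00037, edgeR).

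Msmo1 read 13.1 and 12.4 CPM in hemisection neurons. Untraced neurons held 33.9 and 43.6 CPM, traced neurons 48.9 and 33 CPM, and the uninjured neurons of experiment 2 held 65.7 CPM. The 2 hemisection values were close to each other and the rest were all higher. Msmo1 fell by 1.53 ± 0.29 on the log2 scale against untraced (adjusted p = 0.0492, edgeR) and by 2.25 ± 0.30 against the uninjured library (adjusted p = 0.000397, edgeR).

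Insig1, the retention protein whose own gene is a target of the sterol-regulated factors, read 4.79 and 6.69 CPM in hemisection neurons. Untraced neurons held 29.6 and 24.6 CPM, traced neurons 28.2 and 27.0 CPM, and the uninjured neurons of experiment 2 held 31.3 CPM. All 5 uninjured values lay in a narrow band above both hemisection values. The log2 fold change was -2.40 ± 0.35 against untraced (adjusted p = 0.00527, edgeR) and -2.49 ± 0.35 against the uninjured library (adjusted p = 0.000601, edgeR).

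The calls against untraced rested on few libraries. With DESeq2 none of the 4 was called, and without hemisection replicate 1 or without untraced replicate 1 the count was 0. Without hemisection replicate 2 Insig1 alone kept its call, at a log2 fold change of -2.53. Within the dorsal excitatory neurons, the subtypes whose names start with DE, 0 of 22 members were called against untraced, beside 0.098% of all genes in either direction, and the log2 fold change was -0.62 for Hmgcs1, -0.53 for Msmo1, -1.43 for Sqle and -1.56 for Insig1. Against the uninjured library 7 of 22 were called lower in this subset, beside 2.96% of all genes in either direction, with log2 fold changes of -1.59, -1.69, -2.27 and -2.22 for these 4 genes.

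Fdft1, squalene synthase, and Cyp51, lanosterol 14-demethylase, complete the 6 members with the smallest p against the uninjured library. Fdft1 read 17.1 and 9.56 CPM in hemisection, 41.3 and 36.9 CPM in untraced, 40.6 and 42.0 CPM in traced neurons and 61.6 CPM in the uninjured neurons of experiment 2. The groups did not overlap, and the log2 fold change was -1.95 ± 0.29 against the uninjured library (adjusted p = 0.000806, edgeR) and -1.40 ± 0.28 against untraced (adjusted p = 0.0626, edgeR). Cyp51 read 24.3 and 30.6 CPM in hemisection, 54.2 and 33.6 CPM in untraced, 56.5 and 42.0 CPM in traced neurons and 99.1 CPM in the uninjured neurons of experiment 2. Its highest hemisection value was close to its lowest untraced value, and the log2 fold change was -1.81 ± 0.28 (adjusted p = 0.00119, edgeR) against the uninjured library and -0.79 ± 0.27 against untraced, where it was not called (adjusted p = 0.941, edgeR).

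The other members called lower in neurons against the uninjured library were Idi1, the isopentenyl diphosphate isomerase (-2.03), Fdps, farnesyl diphosphate synthase (-3.07), Ebp, a sterol isomerase (-1.99), Srebf2, which encodes SREBP2 (-0.95), and Stard4, a cytosolic sterol carrier (-2.31), each a log2 fold change. None of these 5 was called against untraced, where their log2 fold changes were -1.74, -1.67, -0.42, -0.91 and -1.47. Srebf2 read 54.7 and 64.0 CPM in hemisection neurons, 109 and 113 CPM in untraced and 122 CPM in the uninjured neurons of experiment 2. Of the synthesis genes, Ggps1, which makes the geranylgeranyl diphosphate used to modify proteins, was not called in either comparison, with log2 fold changes of 0.22 ± 0.25 and 0.05 ± 0.22. Pmvk, phosphomevalonate kinase, had values of 0.00 and -0.47, and Dhcr7, the last reductase of one branch, -0.50 and 0.09, and neither was called. The remaining tested synthesis genes, Acat2 (a thiolase that starts the pathway), Mvd (mevalonate diphosphate decarboxylase), Lss (lanosterol synthase), Tm7sf2 (a sterol reductase), Nsdhl and Hsd17b7 (dehydrogenases of the demethylation steps) and Sc5d (sterol C5-desaturase), were not called either, and had log2 fold changes of -0.39 to -1.82 over both comparisons.

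Among the regulators Insig2, the second retention protein, had log2 fold changes of -0.58 and -0.13 in neurons, and Scap, the escort of SREBP, had -0.23 and 0.14. Neither was called, nor were Srebf1 (-1.07 and -0.74) and the liver X receptor gene Nr1h2 (-0.33 and -0.58). Among the transport genes Npc1 and Npc2, which pass cholesterol out of lysosomes, had -0.59 and -0.80 against the uninjured library and -0.07 and 0.09 against untraced, with no call. Soat1 (-1.0 and -0.37), Abcg1 (0.30 and 0.33) and Cyp46a1 (-0.90 and -0.32) were not called in either comparison.

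Abca1 was the only member called higher in neurons, and only against the uninjured library. It read 29.7 and 19.1 CPM in hemisection, 6.56 and 10.1 CPM in untraced, 6.89 and 6.00 CPM in traced neurons, 29.6 CPM (4 UMIs) in regenerating neurons and 9.26 CPM in the uninjured neurons of experiment 2. The 2 hemisection values lay above all 5 uninjured ones. The log2 fold change was 1.58 ± 0.39 (adjusted p = 0.0261, edgeR), and 1.78 ± 0.39 against untraced (adjusted p = 0.118, edgeR), and the call held in 3 of 7 alternatives. Microglia are the class with the most Abca1, and their 7 markers summed to 128 and 247 CPM in hemisection, 197 CPM in uninjured and 87.8 and 134 CPM in untraced neurons. If all of these UMIs came with the other transcripts of microglia of the same library, they would bring 28.7 and 45.8 CPM of Abca1 to hemisection replicates 1 and 2, and 4.58 CPM to the uninjured neurons of experiment 2. The level measured in hemisection neurons was 1.05 CPM above that amount in replicate 1 and below it in replicate 2.

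**Figure D2:**
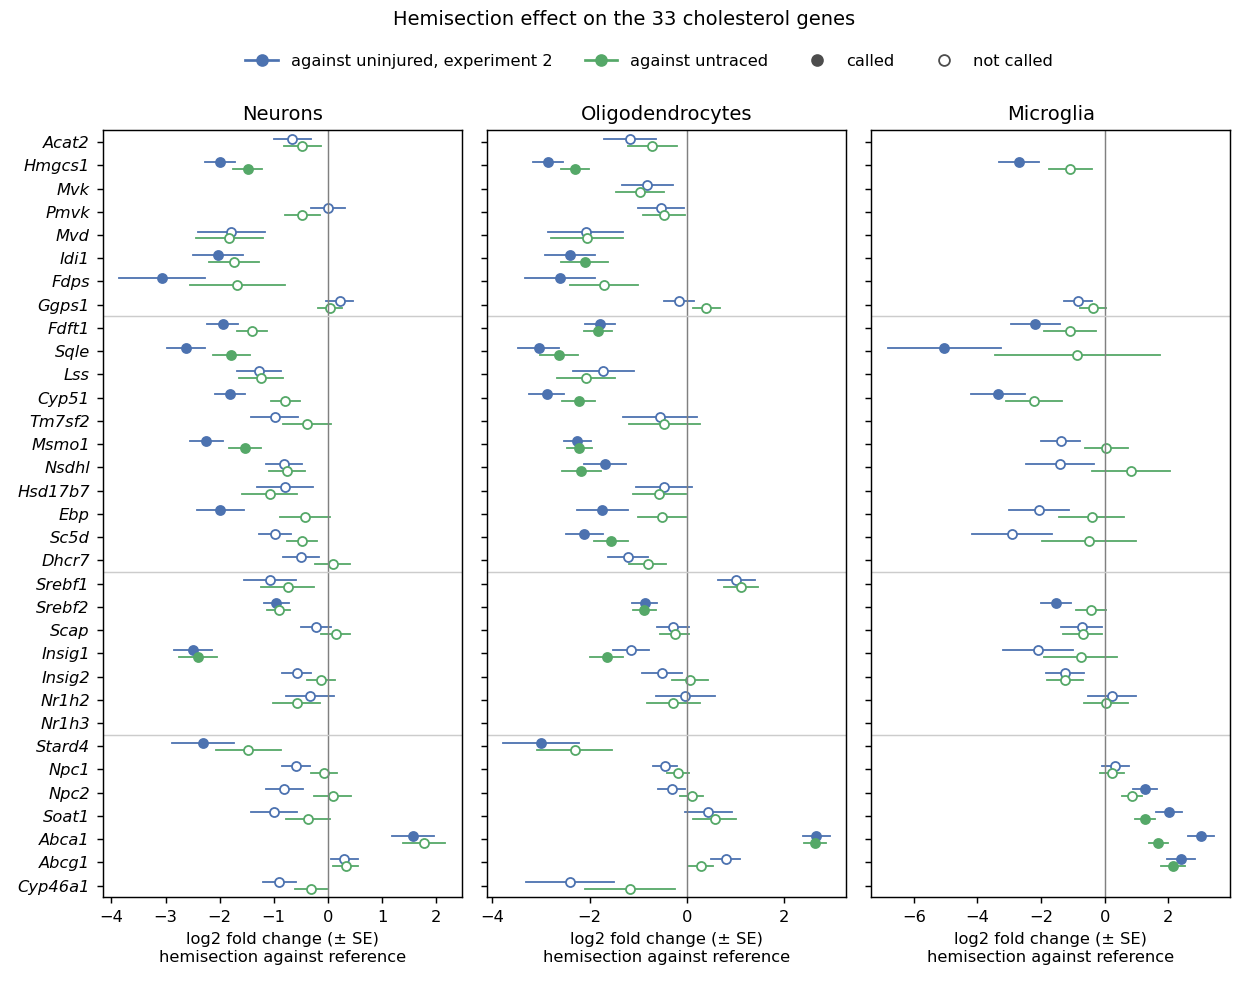
Log2 fold change of each member (rows, in the order of the roles, which thin lines separate) after hemisection in neurons, oligodendrocytes and microglia. Blue compares with the uninjured library of experiment 2 and green with untraced libraries, bars are ± 1 SE, filled points were called by edgeR at an adjusted p under 0.05, and members without a point did not pass the filter. Synthesis genes lie left of zero in neurons and oligodendrocytes apart from Ggps1 and a few points near zero, and Abca1 lies to the right in all 3 classes.

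Neuronal subtypes were compared within hemisection replicate 1, the only hemisection library with at least 20 nuclei in more than a few of them. The summed level of the synthesis genes was lower than in the uninjured library of experiment 2 in 15 of 15 subtypes, with medians of 303 and 663 CPM. It was lower than in untraced replicate 1 in 7 of 7 subtypes, with medians of 284 and 439 CPM. Untraced replicate 1 was itself lower than the uninjured library of experiment 2 in those 7 subtypes, with medians of 439 and 532 CPM. Subtypes of 1 library share that library, so these counts are a description of single libraries and carry no test. Abca1 was higher in hemisection replicate 1 in 14 of 15 subtypes than in the uninjured library of experiment 2, with medians of 20.1 and 7.00 CPM. Against untraced replicate 1 it was higher in 7 of 7, with medians of 16.3 and 4.25 CPM. Microglial carry-over of Abca1, given above for all neurons of a library, was not computed by subtype.

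**Figure D3:**
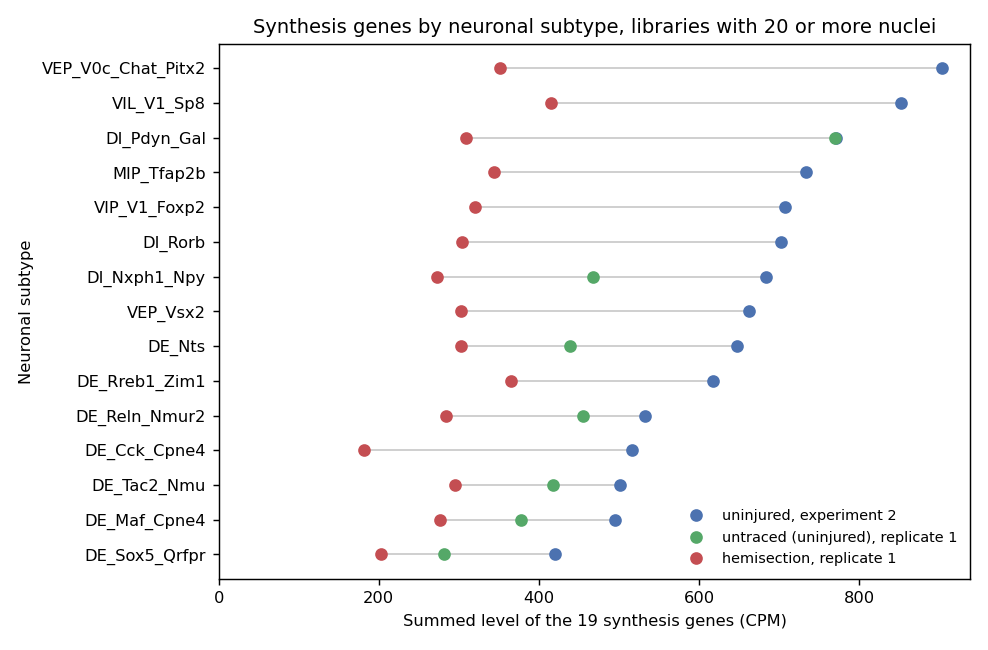
Summed level of the 19 synthesis genes (horizontal axis, CPM) in the 15 neuronal subtypes (rows) with at least 20 nuclei in hemisection replicate 1 and in the uninjured library of experiment 2, with untraced replicate 1 where it had as many. Hemisection is the leftmost point in all 15 rows, and the 7 untraced points lie between it and the uninjured library, the one of DI_Pdyn_Gal almost on top of it.

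Only DE_Reln_Nmur2 had at least 20 nuclei in each of the 5 hemisection, untraced and uninjured experiment 2 libraries, with 20 to 198 nuclei. There 0 of 12 tested members were called by edgeR against the uninjured library (1.69% of all genes) and 0 against untraced (0.0518% of all genes), and 2 and 1 members had an unadjusted p under 0.05. Cyp51 had the smallest p in both, with log2 fold changes of -1.54 ± 0.66 and -1.64 ± 0.70. DESeq2 was not run on single subtypes.

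The 2 uninjured references differed from each other as well. Untraced neurons had a median log2 fold change of -0.45 over the 31 members against the uninjured library of experiment 2. None was called (0 of 31 by edgeR, 5 at an unadjusted p under 0.05, 0 by DESeq2), while 2.58% of all genes were called in that comparison. Cyp51 (-1.02 ± 0.28, adjusted p = 0.0675, edgeR) and Ebp (-1.57 ± 0.44, adjusted p = 0.0793, edgeR) came nearest. Experiment and tracing fraction cannot be told apart here.

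Between traced and untraced neurons none of the 31 members was called (0 by edgeR, 1 at an unadjusted p under 0.05, 0 by DESeq2), and 0.362% of all genes were. Nsdhl had the smallest p, with 33.1 and 48.0 CPM in traced and 21.7 and 16.8 CPM in untraced neurons. The values did not overlap, and the log2 fold change was 0.88 ± 0.34 (adjusted p = 0.447, edgeR).

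The regenerating library was too shallow for most members. Its 238 neurons had a median of 488 UMIs, and its 3-count limit of detection corresponds to 22.2 CPM. The synthesis genes together had 23 UMIs, or 170 CPM, and 12 of 19 were at 0. The 95% Poisson interval of that sum was 108 to 256 CPM. It lay below the intervals of the traced libraries, 476 to 551 and 425 to 580 CPM. This library is the only one of experiment 3, so regeneration and experiment cannot be told apart, and the part of depth was not tested. Against traced neurons 0 of 31 members were called by edgeR and 0 by DESeq2 (9 at an unadjusted p under 0.05), and 0.276% of all genes were. Hmgcs1, Sqle and Msmo1, which read 26.9 to 48.9 CPM in the traced libraries, were at 0 in the regenerating library. The traced levels lie above its 3-count limit of 22.2 CPM and would give only a few UMIs for each gene at its depth.

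Oligodendrocytes, the myelin-forming cells, held less transcript of the synthesis genes after hemisection than in each uninjured library. The summed level of the synthesis genes was 313 and 373 CPM in hemisection replicates 1 and 2, 900 and 965 CPM in untraced and 1323 CPM in the uninjured library of experiment 2. Hemisection replicate 1 held only 62 oligodendrocytes with 166061 UMIs, and replicate 2 held 765. Against untraced, 10 of 32 members were lower and 1 was higher, beside 0.931% and 2.08% of all genes. Against the uninjured library, 12 of 32 were lower and 1 higher, beside 4.77% and 2.83% of all genes. The median log2 fold change of the members was -0.84 and -1.16, and that of all genes -0.03 and -0.08.

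Hmgcs1 read 30.1 and 22.9 CPM in hemisection, 108 and 110 CPM in untraced and 186 CPM in the uninjured oligodendrocytes of experiment 2. The hemisection values were well below the others. The log2 fold change was -2.30 ± 0.29 against untraced (adjusted p = 6.81e-05, edgeR) and -2.86 ± 0.31 against the uninjured library (adjusted p = 1.06e-05, edgeR). Msmo1 read 36.1 and 39.0 CPM in hemisection, 160 and 169 CPM in untraced and 196 CPM in the uninjured library. Its replicates lay close together, and the log2 fold changes were -2.21 ± 0.26 (adjusted p = 2.32e-05, edgeR) and -2.26 ± 0.28 (adjusted p = 4.8e-05, edgeR).

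Sqle read 24.1 and 8.59 CPM in hemisection, 60.6 and 60.3 CPM in untraced and 93.9 CPM in the uninjured library, and Cyp51 read 6.02 and 24.1 CPM, 84.9 and 100 CPM, and 168 CPM. Hemisection replicate 1 rests on 4 and 1 UMIs for these genes. The groups did not overlap, and the log2 fold changes against untraced were -2.63 ± 0.40 for Sqle and -2.23 ± 0.33 for Cyp51. Fdft1 read 24.1 and 37.8 CPM against 114 and 117 CPM in untraced and 130 CPM in the uninjured library, with a log2 fold change of -1.83 ± 0.28 against untraced. Idi1 (-2.11 ± 0.49), Nsdhl (-2.18 ± 0.40) and Sc5d (-1.56 ± 0.35) were also called lower against untraced.

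Insig1 read 18.1 and 26.9 CPM in hemisection, 85.9 and 58.6 CPM in untraced and 60.0 CPM in the uninjured oligodendrocytes of experiment 2. The call was made against untraced (-1.65 ± 0.34, adjusted p = 0.00743, edgeR) and missed against the uninjured library (-1.14 ± 0.37, adjusted p = 0.0658, edgeR). Srebf2 read 114 and 115 CPM against 166 and 222 CPM in untraced and 222 CPM in the uninjured library, and fell in both comparisons (-0.88 ± 0.23, adjusted p = 0.0456, edgeR, and -0.87 ± 0.26, adjusted p = 0.0484, edgeR). Fdps (-2.61), Ebp (-1.74) and Stard4 (-3.00) were called against the uninjured library only, and had log2 fold changes of -1.71, -0.52 and -2.31 against untraced. Srebf1, which drives fatty acid genes, was not called, at 42.2 and 80.2 CPM in hemisection against 24.0 and 38.3 CPM in untraced (1.11 ± 0.34, adjusted p = 0.107, edgeR). Without hemisection replicate 2, which holds most of the nuclei, 4 members were called against untraced and 6 against the uninjured library.

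Abca1 rose in oligodendrocytes. It read 319 and 384 CPM in hemisection, 51.3 and 54.6 CPM in untraced and 60.0 CPM in the uninjured library of experiment 2. The hemisection values lay far above the other 3, and 41.9% and 46.7% of hemisection oligodendrocytes held a UMI against 11.7% to 17.6% in the rest. The log2 fold change was 2.63 ± 0.23 against untraced (adjusted p = 3.98e-07, edgeR) and 2.66 ± 0.28 against the uninjured library (adjusted p = 7.92e-06, edgeR), and the call held in 7 of 7 and 5 of 5 alternatives. The 7 microglia markers summed to 217 and 547 CPM in hemisection oligodendrocytes, 74.0 and 277 CPM in untraced and 163 CPM in the uninjured library, and 3 of the 7 were called higher against untraced. Counted as whole microglial transcript, these UMIs would bring 48.4 and 102 CPM of Abca1 to hemisection oligodendrocytes, and 271 and 283 CPM were measured beyond that. Abcg1 read 235 and 156 CPM in hemisection and 107 to 160 CPM in the uninjured libraries, which overlapped, and was not called.

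Oligodendrocyte markers themselves were lower after hemisection for 2 of 10 genes against untraced, with a summed level of 15976 and 16259 CPM in hemisection and 17400 to 21277 CPM in the other libraries. Mitochondrially encoded transcripts in oligodendrocytes summed to 1909 and 1669 CPM in hemisection, 817 and 1192 CPM in untraced and 6426 CPM in the uninjured library of experiment 2. They were called higher for 2 of 13 and lower for 0 against untraced, and lower for 13 of 13 against the uninjured library. The 8 neuron markers summed to 102 and 50.4 CPM in hemisection, 64.2 and 95.3 CPM in untraced and 690 CPM in the uninjured library, and 7 of 8 were called lower against it. The part of these shifts in the result against the uninjured library was not tested. Between the 2 uninjured references 0 of 32 members were called in oligodendrocytes by edgeR and 0 by DESeq2 (3 at an unadjusted p under 0.05), whereas 9.21% of all genes were.

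In microglia 3 or 4 of the 7 transport genes were higher after hemisection, depending on the reference. Abca1, Abcg1 and Soat1 were called higher against untraced (3 of 19 members tested, beside 4.45% of all genes), and with Npc2 4 of 19 were against the uninjured library (beside 7.35% of all genes). These are 15.8% and 21.1% of the members tested. Only 32 nuclei (2.87%) were microglia in hemisection replicate 1, and 593 (39.2%) in replicate 2.

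Abca1 read 1510 and 1543 CPM in hemisection microglia, 228 and 682 CPM in untraced and 184 CPM in the uninjured library of experiment 2. The untraced replicates differed from each other far more than the hemisection replicates did, and both lay below them. The log2 fold change was 1.68 ± 0.30 against untraced (adjusted p = 3.01e-05, edgeR) and 3.03 ± 0.41 against the uninjured library (adjusted p = 2.85e-08, edgeR). With 2 residual degrees of freedom, SE and p draw on a spread shared over genes. They do not reflect the full gap of Abca1 between the untraced replicates. It was also the 1 member of 19 called higher between the 2 uninjured references (1.34 ± 0.38, adjusted p = 0.0109, edgeR, beside 1.91% of all genes), and without untraced replicate 2 that call was lost.

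Abcg1 read 302 and 310 CPM in hemisection, 48.0 and 84.5 CPM in untraced and 57.9 CPM in the uninjured microglia of experiment 2. The 2 hemisection values were nearly equal and without overlap with the rest, at a log2 fold change of 2.15 ± 0.37 against untraced (adjusted p = 1.53e-05, edgeR) and 2.39 ± 0.44 against the uninjured library (adjusted p = 1.96e-05, edgeR). Soat1 read 459 and 342 CPM in hemisection, 129 and 175 CPM in untraced and 93.2 CPM in the uninjured library, again without overlap, at 1.27 ± 0.32 (adjusted p = 0.00456, edgeR) and 2.03 ± 0.40 (adjusted p = 6.34e-05, edgeR). The Soat1 call against untraced held in 4 of 7 alternatives, and was lost with DESeq2 (adjusted p = 0.113), without hemisection replicate 2 (adjusted p = 0.0601, edgeR) and without untraced replicate 1 (adjusted p = 0.0552, edgeR). Npc2 read 374 and 407 CPM in hemisection against 162 to 234 CPM in the others and was called against the uninjured library (1.28 ± 0.37, adjusted p = 0.00822, edgeR) but not against untraced (0.85 ± 0.31, adjusted p = 0.0807, edgeR). Npc1 was not called, at log2 fold changes of 0.24 and 0.34.

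**Figure D4:**
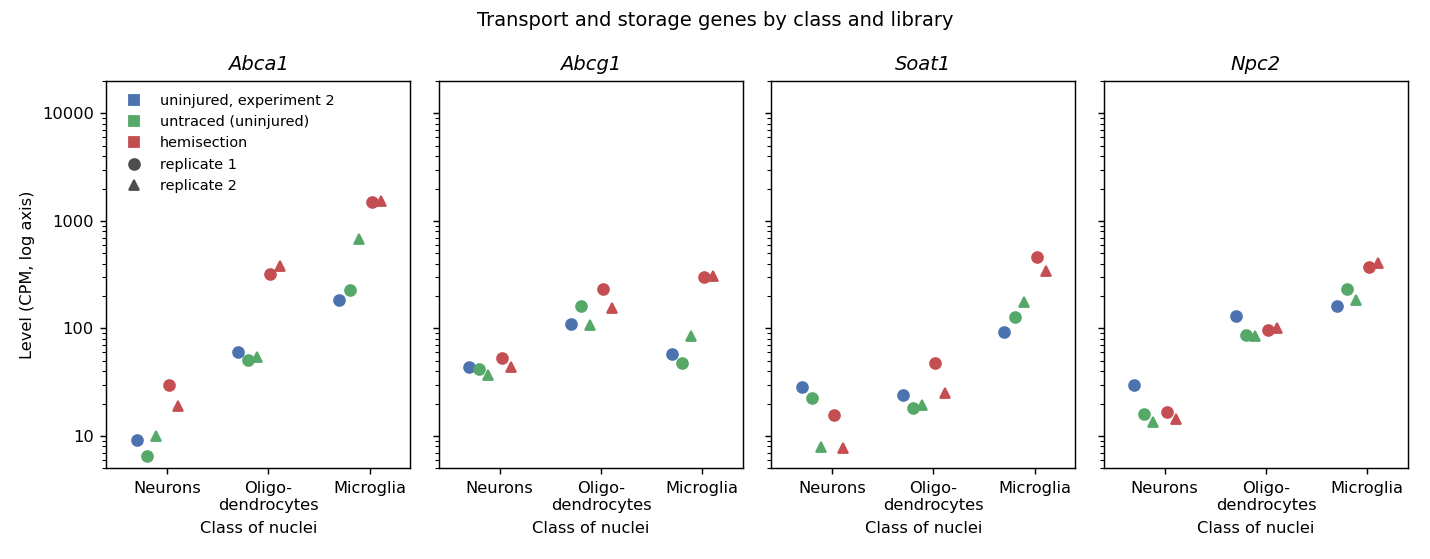
Levels of Abca1, Abcg1, Soat1 and Npc2 (CPM on a log axis) in neurons, oligodendrocytes and microglia, 1 point per library, with colours for the group and symbols for the replicate. Traced libraries are not drawn. In microglia hemisection lies above the 3 uninjured libraries drawn for all 4 genes, and in oligodendrocytes for Abca1 (319 and 384 CPM against 51.3 to 60.0) and Soat1. In neurons it does so for Abca1 and, narrowly, for Abcg1 (53.4 and 44.0 CPM against 36.9 to 43.3). Abcg1 in hemisection neurons overlaps the traced libraries that are not drawn (35.8 and 48.0 CPM).

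In microglia the result for the synthesis genes depended on the reference. Hmgcs1, Fdft1, Sqle and Cyp51, with Srebf2, were called lower against the uninjured library of experiment 2 (5 of 19 members, beside 13% of all genes), and 0 of 19 were called lower against untraced by edgeR and 0 by DESeq2 (Cyp51 and Insig2 had an unadjusted p under 0.05), beside 3.22% of all genes. Microglia of hemisection replicate 1 held 82808 UMIs. The 19 synthesis genes together had 19 of them, with 10 genes at 0, and the 7 regulators had 11. Single genes in that library therefore rest on very few UMIs. Hmgcs1 read 12.1 and 11.2 CPM in hemisection, 21.0 and 26.2 CPM in untraced and 75.5 CPM in the uninjured library. Srebf2 read 24.2 and 38.4 CPM, 54.0 and 40.8 CPM, and 106 CPM. In both genes the uninjured library of experiment 2 stood highest, and its microglia also held 3792 CPM of oligodendrocyte markers against 217 and 574 CPM in hemisection and 1278 and 1002 CPM in untraced. Mitochondrially encoded transcripts summed to 9576 CPM in it, 1558 and 2079 CPM in hemisection and 549 and 1183 CPM in untraced microglia. Its neuron markers summed to 995 CPM, against 121 and 40.8 CPM in hemisection and 69.0 and 128 CPM in untraced. Their part in the calls was not tested. Counted as whole oligodendrocyte transcript, the oligodendrocyte markers would bring 236 CPM of the 625 CPM of synthesis genes in that library, and 55.6 to 57.9 CPM in untraced microglia.

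In OPC 0 of 15 members were called by edgeR and 0 by DESeq2 in either comparison, while 2.13% of all genes were called against the uninjured library and 0.286% against untraced. At an unadjusted p under 0.05 the counts were 7 and 1 members. Cyp51 had the smallest p in both. The summed level of the synthesis genes was 241 CPM in the 1 hemisection library with enough OPC against 570 to 975 CPM in the uninjured ones. Astrocytes and vascular nuclei could not be compared, since the hemisection libraries held 6 and 7 astrocytes and 2 and 12 vascular nuclei.

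Whether the hemisection effect differed between neurons and glia was tested as an interaction with library as a block. Residual degrees of freedom were 2 with oligodendrocytes and with microglia, and 1 with OPC. The p-values follow from a spread shared over genes, so a gene's own spread between libraries hardly entered. No alternative was run for this test. The block treats neurons and glia of a library as 1 preparation, which cannot be told for the uninjured library of experiment 2. Against that library, class and preparation therefore cannot be told apart. Against untraced, Cyp51 fell further in oligodendrocytes than in neurons (difference in log2 fold change -1.74 ± 0.42, adjusted p = 0.00576, edgeR). It was the only 1 of 33 members called, beside 1.38% of all genes. In oligodendrocytes of hemisection replicate 1, Cyp51 rests on 1 UMI. Against the uninjured library 4 of 33 members were called, Cyp51 (-1.42), Sc5d (-1.33), Soat1 (1.74) and Srebf1 (1.52), beside 8.75% of all genes. For Hmgcs1, Sqle, Msmo1 and Insig1 no difference between the classes was called, which does not show that they fell alike. Abcg1 and Soat1 differed between microglia and neurons against both references (1.82 ± 0.44 and 1.69 ± 0.47 against untraced). Abca1 (1.5) and Npc2 (2.08) differed against the uninjured library. These are 2 of 32 members against untraced, beside 1.93% of all genes. Against the uninjured library they are 4 of 32, close to the 13.4% of all genes called. Between OPC and neurons 0 members were called by edgeR, beside 0.142% of all genes against the uninjured library and 0.0355% against untraced.

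Related lipid genes outside the members were counted beside them. Of the fatty acid synthesis list, which SREBP1 drives, 0 of 9 tested genes were lower in neurons against untraced. Against the uninjured library 1 of 9, Scd2, was lower. The shares of all genes called lower in neurons were 0.0517% and 4.61%. In oligodendrocytes Acss2, the cytosolic acetyl-CoA synthetase, was the 1 of 10 called against untraced (-1.55). Acss2, Scd1 and Scd2 were lower against the uninjured library (-1.40, -2.11 and -0.79). Of all genes, 0.931% and 4.77% were called lower in oligodendrocytes against these references. Of the other sterol genes 1 of 13 tested in oligodendrocytes, Cyp27a1, the mitochondrial 27-hydroxylase, was lower against untraced (-1.12). Against the uninjured library 0 of 13 were called, and Cyp27a1 had -0.74. These counts of other sterol genes stand beside the same 0.931% and 4.77% of all genes, with 2.83% called higher against the uninjured library. In microglia 2 of 11 were higher and 0 lower against untraced, Lipa, the lysosomal cholesteryl ester hydrolase (1.85), and Nceh1, a neutral one (1.19), beside the 4.45% of all genes given above. Against the uninjured library 3 of 11 were higher and 1 lower, beside 7.35% and 13% of all genes. Lipa was at 1.91 and Nceh1 at 1.72.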

How the data were processed

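The authors deposited UMI counts per gene and nucleus, with no normalization, for 19787 genes and 12447 nuclei in 8 libraries, and an annotation that names the library and class of each nucleus. The submitters' processing notes name Cell Ranger 4.0.0 together with Seurat 3. The sources used here do not say how nuclei were filtered, doublets removed or classes assigned, and no further filter or doublet caller was applied. There were 0 columns of other samples.

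Counts were summed per library and class and expressed as CPM of the sum, without the genes' length. Sums were tested in edgeR 4.0.16 (R 4.3.3) with TMM scaling, filterByExpr by group (minimum count 10, minimum total 15), glmQLFit and glmQLFTest, and Benjamini-Hochberg adjustment over all tested genes, with calls at 0.05. Every adjusted p printed without another tool is from this test. Neurons of all 8 libraries entered 1 fit with 5 groups (3 residual degrees of freedom), and the group of 1 library was assumed to vary like the rest. Glia entered where a library held at least 20 nuclei, with hemisection, untraced and the uninjured library (oligodendrocytes and microglia 2, OPC 1 residual degree of freedom). Standard errors were derived from the F statistic. The test shares spread over genes, so with few residual degrees of freedom SE and p can understate a gene's own spread between libraries. The fit was tested on simulated data. DESeq2 1.42.0, other size factors, no count filter, subsets of neurons and leaving out each replicate were the alternatives.

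Poisson intervals of 95% and the floor of 3 counts cover counting error only. Carry-over was computed as the markers of another class in a class, multiplied by the ratio of the gene to those markers in that other class of the same library. Replicate numbers pair traced with untraced libraries through the number that their titles share within experiment 1, and the replicate differences of that pair correlated at r = 0.0936 over 11601 genes. All 33 members are described, in the order of their roles. In neurons library values are printed for members called against untraced and for the 6 with the smallest p against the uninjured library. In glia the members called are named, or else those with the smallest p. The members, lists and some tests were chosen with earlier results of these data known.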

Additional observations from a re-analysis of the deposited data

Results flagged for a closer look

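The hemisection effect of 7 members differed between a glial class and neurons by a test of the difference itself, edgeR's interaction of class and group with library as a block. The differences below are glia minus neurons on the log2 scale. Between oligodendrocytes and neurons, Cyp51 differed by -1.74 with untraced as the reference and by -1.42 with the uninjured library of experiment 2 as the reference. With the latter, Sc5d differed by -1.33, Soat1 by 1.74 and Srebf1 by 1.52. Of the 33 members tested, 1 was called with untraced and 4 with the uninjured library, beside 1.38% and 8.75% of all genes. Soat1 read 48.2 and 25.2 CPM in hemisection oligodendrocytes against 23.8 CPM in the uninjured library, and 15.7 and 7.65 CPM in hemisection neurons against 28.4 CPM.

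Between microglia and neurons, Soat1 differed by 1.69 with untraced as the reference and by 3.23 with the uninjured library. Abcg1 differed by 1.82 and 2.18. Abca1 differed by 1.5 and Npc2 by 2.08 with the uninjured library as the reference. Of the 32 members tested, 2 were called with untraced and 4 with the uninjured library, beside 1.93% and 13.4% of all genes. The 4 of 32 are close to the share of all genes, so they are no result about the members as a group. Both references were set against the same hemisection libraries, so these results are not independent. Whether neurons and glia of the uninjured library came from 1 preparation cannot be told. With that reference, class and preparation therefore cannot be told apart. No alternative was run for the interactions, and their calls hardly reflect each gene's own spread between libraries. No group held enough libraries for a check of single libraries that stand apart.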

How the results depend on the processing

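No member changed the direction of a call under any alternative that gave a value. In neurons against the uninjured library of experiment 2, 12 members were called, 6 with DESeq2, 7 within dorsal excitatory neurons, 0 among neurons without a UMI of 4 myelin genes (1.02% of the neurons of that library) and 4 to 6 without one hemisection replicate. Against untraced, 4 were called, 2 with DESeq2 size factors in edgeR, 0 with the DESeq2 Wald test, 7 without a filter, 1 with only the 4 libraries of both groups (added after seeing the data), 0 within dorsal excitatory neurons and 0 without myelin UMIs. Leaving out one replicate gave 0 to 6, and a block for the replicate number gave 7. That number pairs nothing between experiments (r of the replicate differences 0.115), and the block by the number shared within experiment 1 left traced against untraced at 0. Between the uninjured references the 0 calls in neurons became 1 with DESeq2 size factors, 2 without a filter and 0 to 1 without one replicate.

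In oligodendrocytes, 13 calls against the uninjured library became 7 with DESeq2 and 6 to 10 without one replicate, 11 against untraced became 6 and 4 to 11, and 0 between the references became 0 to 1. In microglia, 9 against the uninjured library became 3 with DESeq2 and 3 to 9 without one replicate, 3 against untraced became 2 with DESeq2 and 2 to 4 without one replicate, and 1 between the references became 3 without a filter, 0 with DESeq2 and 0 to 2 without one replicate. The cause of these differences was not tested, except that fewer libraries leave fewer residual degrees of freedom. Apart from dorsal excitatory neurons, the share of all genes called under each alternative is not given. A rise or fall in these counts therefore cannot be told apart from a general change in calls.

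With 2 hemisection libraries, 1 uninjured library in experiment 2 and few glia in hemisection replicate 1, absence of a call says little about genes read at a few counts.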

Other observations

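Across 25 sums of a class in a library, the synthesis genes varied to unlike degrees with the mean of the other 18. Pearson's r was 0.904 for Sqle, 0.874 for Idi1 and 0.863 for Hmgcs1, and lowest for Ggps1 at 0.317. The sums share libraries and depth, so these values are a description. Outside the members, the 5 genes of 12809 compared whose level was most like the mean of the synthesis genes were Acsl3 (r = 0.866), Immp1l (0.855), Zfp639 (0.846), Tubb2b (0.840) and Omg (0.839). Acsl3 activates long-chain fatty acids and Omg encodes a myelin glycoprotein.

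Among the 24 neuronal subtypes with enough nuclei in the uninjured library of experiment 2, the summed level of the synthesis genes ran from 420 to 1120 CPM, with a median of 673 CPM. Cyp46a1 ran from 8.89 to 85.0 CPM, with a median of 36.6 CPM.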
